A study of Homo sapiens with 13 samples.

Results

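The acute phase genes of the liver were followed as a set of 10 listed symbols: the serum amyloid A genes SAA1, SAA2 and SAA4, the orosomucoid genes ORM1 and ORM2, haptoglobin (HP), hemopexin (HPX), C-reactive protein (CRP), lipopolysaccharide-binding protein (LBP) and fibrinogen-like protein 1 (FGL1). A gene counted as measured where a row of the array table carried its symbol alone. By this rule 9 of the 10 genes were measured, of 18377 genes in all, each by 1 row. SAA4 was not, since its row also carries the symbol of the read-through transcript SAA2-SAA4. The measured genes lie on chromosomes 11 (SAA1, SAA2 and HPX), 9 (ORM1 and ORM2), 16 (HP), 1 (CRP), 20 (LBP) and 8 (FGL1).

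HepG2 is a human liver cancer line, and HepG2S1 was derived from it by raising the dose of sorafenib in small steps over months. Sorafenib inhibits several kinases and is given in advanced liver cancer, and HepG2S1 was afterwards kept in it. Each sample was 1 flask, harvested after 72 h and read on 1 Affymetrix HuGene array. There were 3 flasks of HepG2S1 in 6 µM sorafenib at 2% O2, 3 flasks of HepG2S1 withdrawn from the drug at 20% O2, 4 flasks of HepG2S1 in 6 µM sorafenib at 20% O2 and 3 flasks of untreated HepG2 at 20% O2. The medium of all 4 groups held 10% fetal calf serum, 20 mU/ml insulin and 50 nM dexamethasone, a synthetic glucocorticoid. The drug was dissolved in DMSO, and the labels name no vehicle for the flasks without it. They do not say whether HepG2S1 is 1 clone, nor whether flasks came from separate cultures, and p-values cover only the variation among flasks, which may be technical.

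Acute phase proteins are plasma proteins made mainly by hepatocytes, and their output changes in infection and injury. IL-6 drives many of these genes through its receptor, the shared subunit IL6ST and STAT3, IL-1 drives others through NF-kB and C/EBP factors, and glucocorticoids add to both. In humans SAA1, SAA2 and CRP are the members with the steepest induction, while the orosomucoids, HP, HPX and LBP rise more moderately over a high basal output.

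Upstream sequences are shown for ORM1, HPX and CRP, the 3 of the 9 measured genes that RefSeq's table of promoter sequences held. ORM1 and HPX fell in HepG2S1, and CRP did not pass the test. Each runs 5′ to 3′ over the 250 bases before the RefSeq gene start in GRCh38.p14. The intervals are chr9:114322848-114323097 on the plus strand for ORM1, chr11:6440988-6441237 on the minus strand for HPX and chr1:159714590-159714839 on the minus strand for CRP. Capitals mark matches to the C/EBP-type pattern TTNNGNAA on either strand.
ORM1: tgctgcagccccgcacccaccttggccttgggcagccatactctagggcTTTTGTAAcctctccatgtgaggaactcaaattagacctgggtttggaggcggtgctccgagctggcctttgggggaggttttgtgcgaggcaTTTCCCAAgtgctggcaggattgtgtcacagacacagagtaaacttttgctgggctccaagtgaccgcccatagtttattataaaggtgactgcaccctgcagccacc
HPX: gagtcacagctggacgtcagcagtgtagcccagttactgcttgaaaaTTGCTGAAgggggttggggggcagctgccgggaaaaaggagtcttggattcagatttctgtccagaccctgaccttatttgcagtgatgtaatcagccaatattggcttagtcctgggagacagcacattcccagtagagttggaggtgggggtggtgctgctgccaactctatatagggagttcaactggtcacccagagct
CRP: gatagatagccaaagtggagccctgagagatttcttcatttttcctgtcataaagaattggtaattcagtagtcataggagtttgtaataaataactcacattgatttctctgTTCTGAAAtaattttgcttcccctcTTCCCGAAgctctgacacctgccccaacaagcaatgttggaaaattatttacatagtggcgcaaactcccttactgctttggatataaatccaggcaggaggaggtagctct

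The C/EBP-type pattern matched 2 times before ORM1, 1 time before HPX and 2 times before CRP. It is a common pattern, found in 33.63% of the 27305 promoters searched over the same 250 bases. The TATA box TATAAA matched 1 time each in ORM1 and CRP and in 11.13% of all promoters. The glucocorticoid-type pattern AGAACA matched 1 time, in CRP, where it overlaps a capitalised match, and in 12.44% of all promoters. No match to the STAT3-type pattern TTCNNNGAA or an NF-kB-type pattern lay in these windows, and 6.78% and 5.08% of all promoters held them. The STAT3-type search covered that spacing of TTC and GAA alone. The capitalised stretch TTCCCGAA before CRP holds both at a shorter spacing and was not counted, so that STAT3-type sites of other spacing are not excluded. Aligned in pairs, the sequences were identical at 47.25% to 48.9% of columns. A match describes letters in a window and is not a measured binding site.

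The median log2 value of an array was 7.30 to 7.42, and the small number of arrays limits precision. Within a group, arrays correlated at 0.995 to 0.998 over all rows. In HepG2S1 under sorafenib at 20% O2 against HepG2, 27.2% of all genes were called lower, with a median log2 fold change of 0.01. The defining hepatocyte markers went against the liver label in HepG2S1. All 10 measured markers, ALB and AFP among them, fell in that comparison, with a median of -7.14. Their mean level was 5.95 to 6.03 in the arrays at 2% O2, 6.00 to 6.07 in the withdrawn arrays and 6.01 to 6.10 in the exposed arrays at 20% O2, against 12.48 to 12.52 in the HepG2 arrays. In each HepG2S1 group 4 of the 10 lay below 5.76, the median over arrays of the lower quartile, a range in which array values flatten. The part of this loss of hepatocyte markers in the results below was not tested. In bulk RNA, fewer cells of a type and less RNA per cell cannot be told apart.

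HepG2S1 cells under sorafenib at 20% O2 were first compared with HepG2, which asks how the drug-adapted line differed from its parent. The 2 directly measured serum amyloid A genes rose in HepG2S1, SAA1 by 2.39-fold and SAA2 by 1.65-fold. 6 genes fell: HP, FGL1, ORM1 and ORM2 by 51.2-fold to 184-fold, and HPX and LBP by 7.32-fold and 6.12-fold. Their means in HepG2S1 lay below 6.82, the 95th percentile there of 339 olfactory receptor genes, which are not expected in liver cells. The sizes of these 6 folds are thus limited by the floor of the array. CRP did not pass the test. Of the 9 genes 2 were called higher, where 30.1% of all genes tested were called higher, and 6 lower, where 27.2% were called lower. A gene was called at an adjusted p under 0.05 in limma (moderated linear model, Benjamini-Hochberg adjustment over 18377 genes). The median log2 fold change of the 9 genes was -2.87, and that of all genes was 0.01.

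**Figure D1:**
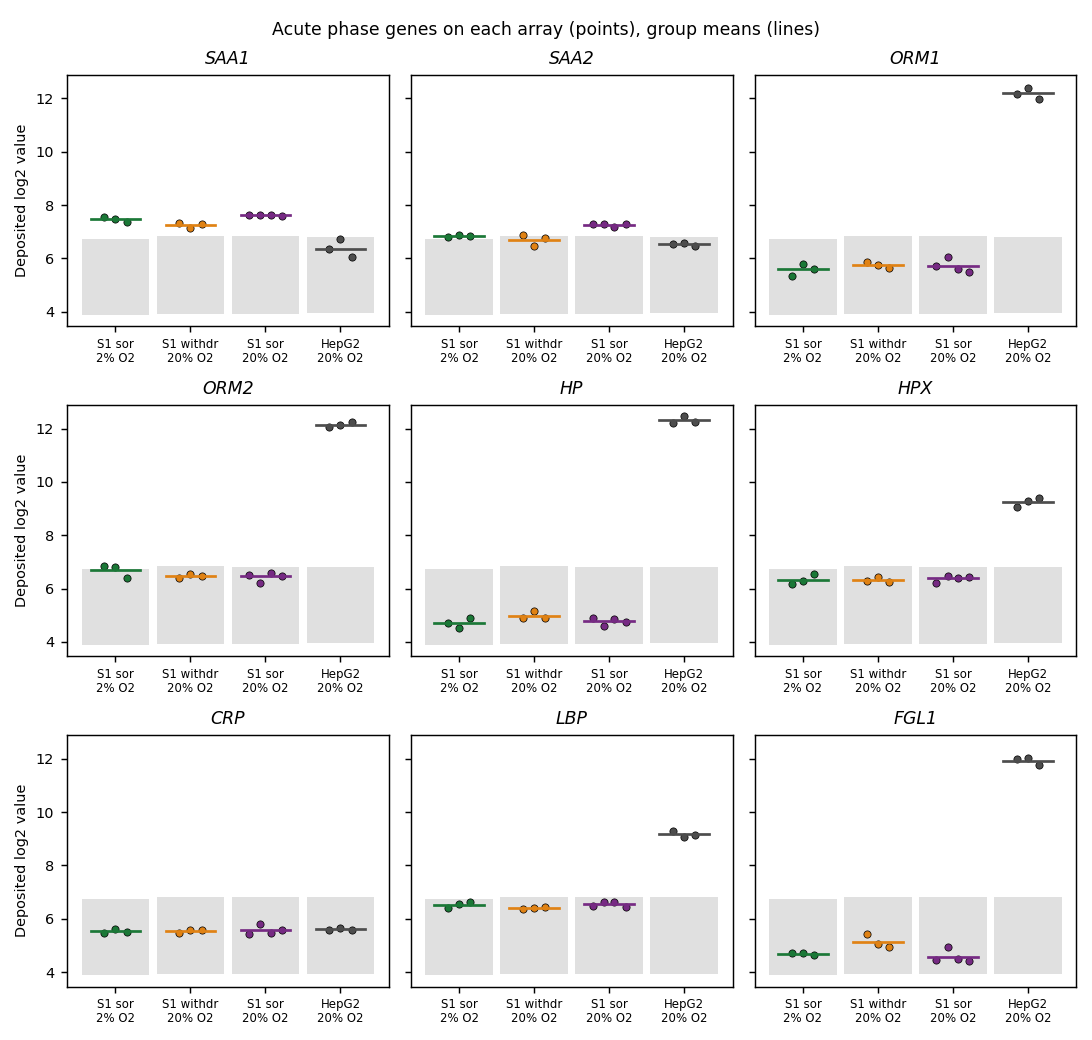
Deposited log2 value (y axis) of the 9 measured acute phase genes on each array, by group (S1, HepG2S1; sor, sorafenib; withdr, withdrawn). Points are arrays, coloured lines are group means, and grey boxes span the 5th to 95th percentile of 339 olfactory receptor genes in each group. The means of ORM1, ORM2, HP, HPX, LBP and FGL1 stand above their box in HepG2 alone. The mean of SAA1 stands above it in the 3 HepG2S1 groups.

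SAA1 encodes an apolipoprotein that displaces others from high-density lipoprotein in the acute phase. Its log2 values were 7.57, 7.49 and 7.37 at 2% O2 with sorafenib, 7.34, 7.15 and 7.30 after withdrawal, 7.62, 7.63, 7.63 and 7.60 in sorafenib at 20% O2, and 6.34, 6.71 and 6.04 in HepG2. Every HepG2S1 array lay above every HepG2 array, and the 4 exposed arrays at 20% O2 were the highest of the 13. The HepG2 arrays were the most scattered, with an SD of 0.34 (n = 3), against 0.01 in the exposed arrays (n = 4). The log2 fold change against HepG2 was 1.11 ± 0.12 (SE) at 2% O2, 0.90 ± 0.12 after withdrawal and 1.26 ± 0.11 in sorafenib at 20% O2. All 3 passed in limma, with adjusted p = 7.59e-07, 8.39e-06 and 8.19e-08.

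SAA2, its close paralog, is the other inducible serum amyloid A. It had log2 values of 6.80, 6.88 and 6.85 at 2% O2, 6.87, 6.46 and 6.78 after withdrawal, 7.30, 7.28, 7.16 and 7.28 in sorafenib at 20% O2, and 6.53, 6.59 and 6.47 in HepG2. The exposed arrays at 20% O2 were again the highest. The other HepG2S1 arrays lay below them at 6.46 to 6.88, and 1 withdrawn array fell below all 3 HepG2 arrays. SAA2 was higher than in HepG2 at 2% O2 (0.32 ± 0.08, adjusted p = 0.00437, limma) and in sorafenib at 20% O2 (0.73 ± 0.08, adjusted p = 8.38e-07). Withdrawn cells did not pass (0.18 ± 0.08, adjusted p = 0.0919, 95% interval -0.0045 to 0.36). Without the withdrawn flask 14 the difference was 0.30 with adjusted p = 0.00147, and without flask 13 it was 0.09 and did not pass. Over 21 alternatives the adjusted p ran from 0.00147 to 0.478. SAA1 and SAA2 are near-identical copies, so that the array cannot assign all of their signal to one or the other.

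CRP, a pentraxin that binds phosphocholine on microbes and dying cells, had no measurable difference. Its values ran from 5.48 to 5.62 at 2% O2, 5.46 to 5.58 after withdrawal, 5.42 to 5.82 in sorafenib at 20% O2 and 5.58 to 5.65 in HepG2. The groups overlap throughout, and 5 of the 13 arrays hold the same value, 5.58. The log2 fold changes against HepG2 lay between -0.06 and -0.03, and the interval for sorafenib at 20% O2 was -0.20 to 0.14 (95%). All 4 group means lay below 5.76, so that a difference in CRP was not detectable at this signal.

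ORM1 encodes orosomucoid, a plasma lipocalin that carries basic and lipophilic drugs. It had log2 values of 5.34, 5.81 and 5.62 at 2% O2, 5.86, 5.76 and 5.62 after withdrawal and 5.74, 6.04, 5.61 and 5.51 in sorafenib at 20% O2, against 12.17, 12.39 and 11.99 in HepG2. The 10 HepG2S1 arrays overlap with each other and lie far below HepG2. Its log2 fold change was -6.59 ± 0.14 at 2% O2, -6.44 ± 0.14 after withdrawal and -6.46 ± 0.13 in sorafenib at 20% O2 (adjusted p = 1.13e-15 for the last, limma). In the HepG2S1 groups 30.1% to 33.9% of olfactory receptor genes had an equal or higher group mean, so that the floor limits these folds.

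ORM2 encodes the second orosomucoid. It had values of 6.85, 6.81 and 6.40 at 2% O2, 6.40, 6.55 and 6.47 after withdrawal and 6.53, 6.21, 6.60 and 6.49 in sorafenib at 20% O2, against 12.04, 12.12 and 12.24 in HepG2. As for ORM1, the HepG2S1 groups overlap. The log2 fold changes were -5.45 ± 0.12, -5.66 ± 0.12 and -5.68 ± 0.11 for 2% O2, withdrawal and sorafenib at 20% O2. In the HepG2S1 groups 5.6% to 10.3% of olfactory receptor genes had an equal or higher group mean, so that the floor limits these folds. ORM1 and ORM2 are near-identical copies, and part of each signal may come from the other.

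HP binds free hemoglobin, and the complex is cleared by macrophages through CD163. It read 4.72, 4.51 and 4.89 at 2% O2, 4.91, 5.18 and 4.89 after withdrawal and 4.91, 4.59, 4.86 and 4.75 in sorafenib at 20% O2, against 12.21, 12.47 and 12.24 in HepG2. Its log2 fold changes were -7.59 ± 0.11, -7.31 ± 0.11 and -7.52 ± 0.10 for 2% O2, withdrawal and sorafenib at 20% O2. The HepG2S1 values lie below 5.76, and 63.7% to 74.3% of olfactory receptor genes had an equal or higher group mean, so that these folds are limited by the floor of the array.

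HPX binds free heme. It read 6.18, 6.27 and 6.55 at 2% O2, 6.30, 6.44 and 6.25 after withdrawal and 6.22, 6.48, 6.41 and 6.43 in sorafenib at 20% O2, against 9.08, 9.28 and 9.41 in HepG2. The log2 fold changes were -2.92 ± 0.10, -2.93 ± 0.10 and -2.87 ± 0.10 for 2% O2, withdrawal and sorafenib at 20% O2 (adjusted p = 6.02e-13 for the last, limma). In each HepG2S1 group 10.3% to 12.4% of olfactory receptor genes had an equal or higher group mean, so that these folds too are limited by the floor.

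LBP hands lipopolysaccharide to CD14. It read 6.40, 6.56 and 6.65 at 2% O2, 6.37, 6.42 and 6.43 after withdrawal and 6.47, 6.65, 6.65 and 6.46 in sorafenib at 20% O2, against 9.28, 9.07 and 9.16 in HepG2. Every HepG2S1 array was below every HepG2 array. The withdrawn arrays lay just below the exposed arrays at 20% O2, a difference that did not pass (-0.15 ± 0.07, adjusted p = 0.205, limma). Against HepG2 the log2 fold changes were -2.63 ± 0.08, -2.76 ± 0.08 and -2.61 ± 0.07 for 2% O2, withdrawal and sorafenib at 20% O2 (adjusted p = 5.96e-14 for the last, limma). In the HepG2S1 groups 6.8% to 10.0% of olfactory receptor genes had an equal or higher group mean, so that the floor limits these folds.

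FGL1 is a secreted liver protein and a ligand of the T cell receptor LAG3. It read 4.70, 4.70 and 4.65 at 2% O2, 5.43, 5.06 and 4.93 after withdrawal and 4.47, 4.93, 4.49 and 4.42 in sorafenib at 20% O2, against 12.01, 12.02 and 11.77 in HepG2. The withdrawn arrays were the highest among HepG2S1, with the lowest of them level with the highest exposed array at 20% O2. The log2 fold changes against HepG2 were -7.25 ± 0.13, -6.79 ± 0.13 and -7.35 ± 0.13 for 2% O2, withdrawal and sorafenib at 20% O2. In the HepG2S1 groups 57.2% to 82.0% of olfactory receptor genes had an equal or higher group mean, so that the floor limits these folds.

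The 3 comparisons with HepG2 share the same 3 HepG2 arrays, so that their values are given side by side and not as repeats of each other. In the withdrawn cells 1 gene, SAA1, was called higher (29.6% of all genes) and 6 were called lower (27.0% of all genes). At 2% O2 SAA1 and SAA2 were called higher (30.6% of all genes) and 6 genes lower (30.6% of all genes). The 6 lower genes were ORM1, ORM2, HP, HPX, LBP and FGL1 in all 3 comparisons. The median over the 9 genes was -2.93 after withdrawal and -2.92 at 2% O2, against -0.01 and -0.05 over all genes.

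Signal near the floor was gauged with 339 olfactory receptor genes, a set chosen after the values were seen and not expected in liver cells. Their 95th percentile was 6.74 at 2% O2, 6.84 after withdrawal, 6.82 in sorafenib at 20% O2 and 6.80 in HepG2. The mean of SAA1 was above it in the 3 HepG2S1 groups and below it in HepG2. That of SAA2 was above it at 2% O2 and in sorafenib at 20% O2, and below it after withdrawal and in HepG2. ORM1, ORM2, HP, HPX, LBP and FGL1 were above it in HepG2 alone, and CRP in no group. Folds of genes under this level on one side are thereby understated or bounded, and the sizes of the falls were not ranked between genes. Levels of different genes were not set against each other because each has its own probes.

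**Figure D2:**
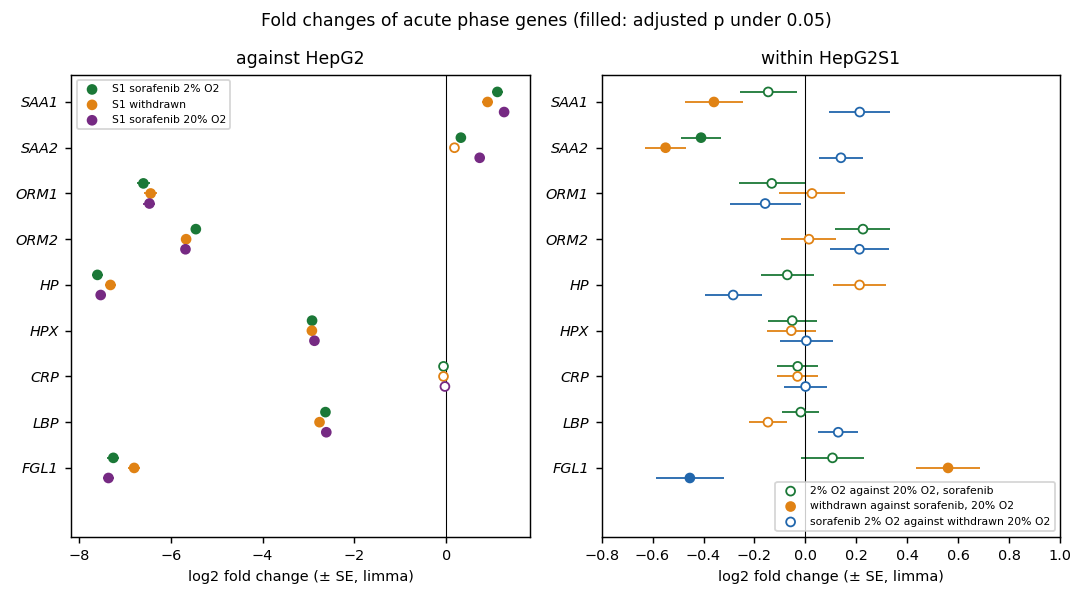
Log2 fold change (x axis, ± SE from limma) of the 9 acute phase genes against HepG2 (left) and between HepG2S1 groups (right); filled points passed an adjusted p of 0.05. On the left SAA1 and SAA2 lie right of 0, CRP at 0 and the other genes between -7.59 and -2.61; on the right, where the axis is narrower, all values lie between -0.55 and 0.56.

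Withdrawal of the drug was compared with continued exposure in HepG2S1 at 20% O2. SAA2 and SAA1 were lower in withdrawn cells and FGL1 was higher, while the other 6 genes did not pass. That made 1 gene higher, where 10.1% of all genes were called higher, and 2 lower, where 7.90% were called lower. The median over the 9 genes was -0.03, against -0.02 over all genes.

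SAA2 was lower by -0.55 ± 0.08 on the log2 scale in withdrawn cells (mean 6.71 ± 0.21, SD, n = 3) than in exposed cells (mean 7.25 ± 0.06, SD, n = 4), with adjusted p = 0.000243 in limma. Its 3 withdrawn arrays all lay below the 4 exposed arrays. The withdrawn mean lies below 6.84, the 95th percentile of the olfactory receptor genes there, so that the size of this difference is limited by the floor. SAA1 averaged 7.26 ± 0.10 (SD, n = 3) in withdrawn cells and 7.62 ± 0.01 (SD, n = 4) in exposed cells, a difference of -0.36 ± 0.11 with adjusted p = 0.0382 in limma. The arrays do not overlap, yet the call is narrow: leaving out any 1 of the 7 arrays of both groups gave adjusted p values of 0.0626 to 0.166, at differences of -0.40 to -0.30. Over 23 alternatives the adjusted p ran from 0.00117 to 0.166 in limma, and 9 of them lost the call. The fit pools the spread of all groups, and the SD of SAA1 was largest in HepG2 (0.34, n = 3). FGL1 averaged 5.14 ± 0.26 in withdrawn cells and 4.58 ± 0.24 in exposed cells, a difference of 0.56 ± 0.13 with adjusted p = 0.00555 in limma. Both FGL1 means lie below 5.76. Of the 5 measured squamous markers 2 were called higher in the same comparison, where 10.1% of all genes were, 0 were lower and 3 did not pass. SERPINB3 and KRT5 were higher by 1.62 and 0.79. The mean of the 5 squamous markers was 7.29 to 7.42 in withdrawn arrays and 6.78 to 6.87 in exposed arrays. The part of these markers in the 3 results was not tested.

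Low oxygen was compared within sorafenib-exposed HepG2S1. SAA2 was lower at 2% O2 than at 20% O2 by -0.41 ± 0.08 (mean 6.84 ± 0.04, n = 3, against 7.25 ± 0.06, SD, n = 4, adjusted p = 0.00292, limma), with no overlap of arrays. It was the 1 gene called lower, where 6.17% of all genes were. No gene was called higher in limma, where 8.99% of all genes were, and none of the upward differences had an unadjusted p under 0.05. SAA1 differed by -0.15 (95% interval -0.39 to 0.09) and ORM2 by 0.23 (95% interval -0.0052 to 0.46), and neither passed. Without flask 18, the lowest 2% O2 array for ORM2, that gene passed at 0.37 with adjusted p = 0.0204, and without flask 16 it was at 0.14 with adjusted p = 0.488.

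Between 2% O2 with sorafenib and withdrawal at 20% O2, drug and oxygen differ together and cannot be told apart. FGL1 was lower at 2% O2 by -0.45 ± 0.13 (4.69 ± 0.03 against 5.14 ± 0.26, SD, n = 3 each, adjusted p = 0.0278, limma). It was the 1 gene called lower, where 7.73% of all genes were, and none was called higher in limma, where 10.8% of all genes were. At an unadjusted p under 0.05, HP was lower as well (-0.28, adjusted p = 0.0962) and none was higher. The FGL1 call was lost when any of flasks 13, 16, 17 or 18 was left out, with adjusted p values of 0.0667 to 0.136.

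**Figure D3:**
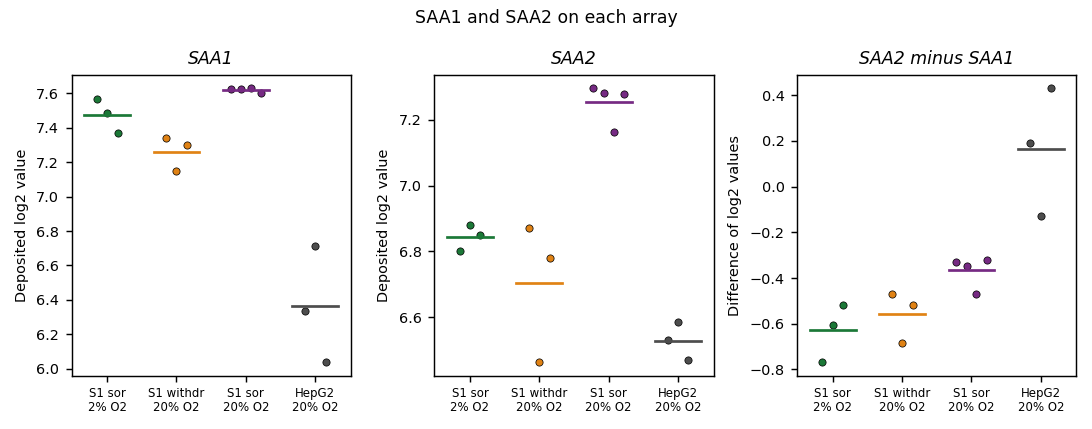
Deposited log2 values of SAA1 and SAA2 and the difference SAA2 minus SAA1 within each array (y axes, each with its own range) by group; points are arrays and lines are group means. Both genes are highest in HepG2S1 with sorafenib at 20% O2, and SAA2 lies close to HepG2 after withdrawal.

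The gap between SAA1 and SAA2 was compared within arrays. The difference SAA2 minus SAA1 within an array averaged -0.63 ± 0.13 at 2% O2, -0.56 ± 0.11 after withdrawal, -0.37 ± 0.07 in sorafenib at 20% O2 and 0.17 ± 0.28 in HepG2 (SD, n = 3, 3, 4 and 3). It was lower by -0.26 at 2% O2 than in sorafenib at 20% O2, with an exact two-sided permutation p of 0.0571, the smallest that 3 against 4 arrays allow. The means of SAA2 after withdrawal and of both genes in HepG2 lie below the 95th percentile of the olfactory receptor genes, which limits the gap there. Of 12 such permutation tests, over this pair and the pair of ORM1 and ORM2, none passed after adjustment, the lowest adjusted p being 0.171, and groups of 3 and 4 arrays cannot reach an exact p under 0.05.

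The order of the 4 groups therefore differed by gene. For SAA1 it ran from sorafenib at 20% O2 over 2% O2 and withdrawal to HepG2. The 2% O2 arrays passed neither against exposed cells at 20% O2 (adjusted p = 0.389, limma) nor against withdrawn cells (adjusted p = 0.257), although they overlap with neither. That fit pools the spread of HepG2 as well. With the HepG2S1 arrays alone, 2% O2 passed against withdrawal (0.21, adjusted p = 0.0325, limma), and no alternative passed against exposed cells at 20% O2. For SAA2 the order was the same as for SAA1. There 2% O2 and withdrawal (adjusted p = 0.296), and withdrawal and HepG2, were the neighbours that did not pass. For ORM1, ORM2, HP, HPX and LBP HepG2 was highest, and no pair of HepG2S1 groups passed. For FGL1 HepG2 was followed by withdrawal, then 2% O2, then sorafenib at 20% O2, and the last 2 did not pass (adjusted p = 0.584).

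Other positive acute phase proteins, a list of 27 genes with 25 measured, mostly fell with HP. In sorafenib at 20% O2 against HepG2, 19 fell and 2 rose, with a median of -3.12; over all genes 27.2% were called lower and 30.1% higher in that comparison, with a median of 0.01. The largest falls were in SERPINA3, an inhibitor of chymotrypsin-like proteases (-7.48 ± 0.08), the fibrinogen chains FGA (-7.44 ± 0.10), FGB (-7.33 ± 0.08) and FGG (-7.15 ± 0.07), and the copper carrier CP (-7.18 ± 0.13). Their means in sorafenib at 20% O2 ran from 4.57 to 6.20, below 6.82, the 95th percentile of the olfactory receptor genes. The size and order of these falls are thus limited by the floor. PTX3, a pentraxin made outside the liver as well, rose by 0.61 ± 0.09 and LCN2, a siderophore binder, by 0.29 ± 0.07. The PTX3 means, 5.79 in sorafenib at 20% O2 and 5.19 in HepG2, both lie below that percentile of their group, so that this rise is near the floor. Against HepG2, 20 fell and 1 rose after withdrawal (27.0% and 29.6% of all genes), and 19 fell and 2 rose at 2% O2 (30.6% each way over all genes).

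Within HepG2S1, CP was higher at 2% O2 by 1.36 ± 0.14 than after withdrawal and by 1.68 ± 0.13 than in sorafenib at 20% O2. Its means of 6.61, 5.25 and 4.93 in these 3 groups all lie below the 95th percentile of the olfactory receptor genes, so that the size of the difference is limited by the floor. Complement factor B (CFB) was lower by -0.70 ± 0.06 after withdrawal and by -0.54 ± 0.06 at 2% O2, each against sorafenib at 20% O2, as SAA2 was. Comparisons with sorafenib at 20% O2 share the same exposed arrays, here and for other genes, and are not repeats of each other. LCN2 was lower by -0.63 ± 0.07 after withdrawal. After withdrawal 3 of the 25 were lower and 0 higher in limma, or 4 and 1 at an unadjusted p under 0.05, where 7.90% of all genes were called lower and 10.1% higher. At 2% O2 against 20% O2, 2 were lower and 1 higher, where 6.17% of all genes were called lower and 8.99% higher.

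Negative acute phase proteins are plasma proteins whose output falls in inflammation. In sorafenib at 20% O2, 9 of 12 fell against HepG2 (27.2% of all genes fell) and none rose in limma (30.1% of all genes rose), also at an unadjusted p under 0.05, with a median of -5.55. The largest falls were in ITIH2 (-7.86 ± 0.06), albumin (ALB, -7.59 ± 0.06) and transferrin (TF, -7.37 ± 0.05), followed by AHSG (-6.96 ± 0.06) and APOA2 (-6.76 ± 0.05). In sorafenib at 20% O2 the means of ALB, TF and APOA2 were 5.20, 6.11 and 6.80. These lie below 6.82, the 95th percentile of the olfactory receptor genes, so that the size and order of such falls are limited by the floor. Positive and negative acute phase proteins thus both had medians below 0, with the positive list at -3.12 and the negative list at -5.55. RBP4, the retinol carrier, was higher by 0.63 ± 0.09 after withdrawal than in sorafenib at 20% O2, as FGL1 was. IGF1 was lower by -0.32 ± 0.08 at 2% O2 than in sorafenib at 20% O2, at group means of 4.78 and 5.10 that lie below 5.76 and thus near the floor.

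**Figure D4:**
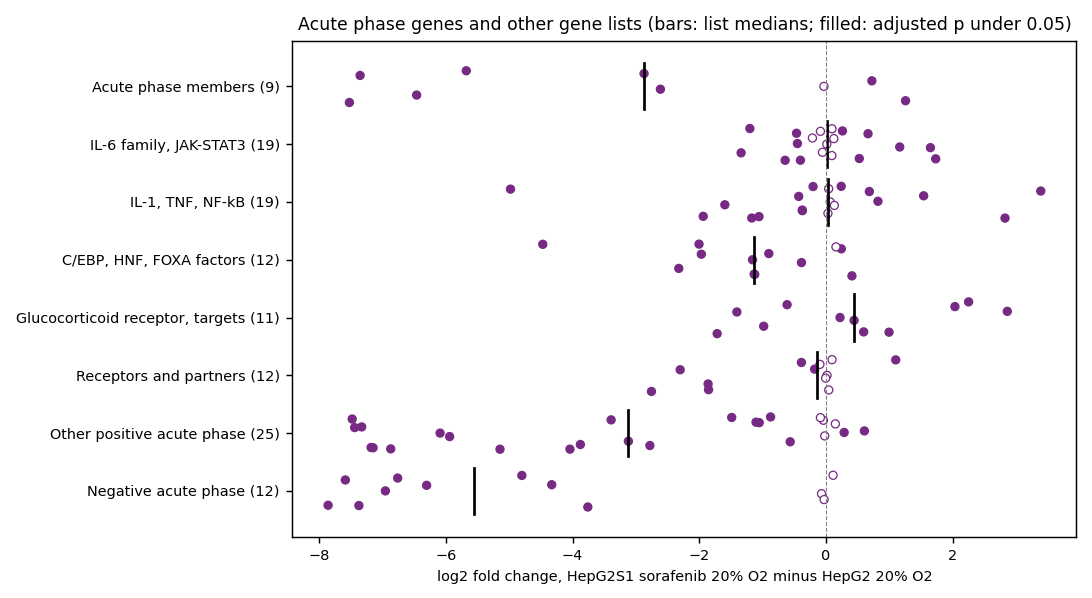
Log2 fold change (x axis) in HepG2S1 with sorafenib at 20% O2 minus HepG2 for each gene of the acute phase set and of 7 other lists (rows, with the number of genes measured); points are genes, filled where the adjusted p was under 0.05, and black bars are list medians. The medians of the secreted protein lists lie at -2.87, -3.12 and -5.55, and those of the IL-6 and IL-1 lists at 0.01 and 0.03.

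In the IL-6 and JAK-STAT3 list, 6 of 19 measured genes rose and 6 fell in sorafenib at 20% O2 against HepG2, with a median of 0.01. Over all genes 30.1% rose and 27.2% fell, with a median of 0.01, so that the list's shares were near the background. The receptor genes IL6R (-1.34 ± 0.07) and IL6ST (-1.20 ± 0.10) and the factor STAT3 (-0.45 ± 0.05) fell. The cytokine IL6 (1.17 ± 0.06), the receptor LIFR (1.73 ± 0.09), the STAT3 inhibitor PIAS3 (1.65 ± 0.07) and the feedback inhibitor SOCS3 (0.66 ± 0.07) rose. IL6 was higher by 0.48 ± 0.06 after withdrawal, where SAA1 and SAA2 were lower, and by 0.23 ± 0.06 at 2% O2, each against sorafenib at 20% O2. OSMR, the oncostatin M receptor, was higher by 0.53 ± 0.06 and 0.58 ± 0.06 in the same comparisons. The kinase JAK1 was lower by -0.33 ± 0.05 after withdrawal. The part of these genes in the SAA1 and SAA2 results was not tested.

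In the IL-1, TNF and NF-kB list, 6 of 19 measured genes rose and 9 fell in the same comparison, against 30.1% and 27.2% of all genes, with a median of 0.03. The cytokines IL1A and IL1B rose by 3.39 ± 0.09 and 2.83 ± 0.09 and the NF-kB subunit NFKB2 by 1.54 ± 0.06. The IL-1 receptor gene IL1R1 (-4.98 ± 0.08), the adaptor MYD88 (-1.94 ± 0.09) and the decoy receptor IL1R2 (-1.60 ± 0.08) fell. IL1B was lower by -0.69 ± 0.09 after withdrawal than in sorafenib at 20% O2, in the same direction as SAA1 and SAA2, while IL1A was higher by 0.64 ± 0.09. At 2% O2, where SAA2 was lower, IL1A was higher by 0.95 ± 0.09 and IL1B did not pass (0.23 ± 0.09). The TNF receptor TNFRSF1B was lower there by -0.31 ± 0.07. Whether this list has a part in the SAA1 and SAA2 results was not tested.

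Transcription factors of liver secretory genes were mostly lower in HepG2S1. In sorafenib at 20% O2, 9 of 12 measured factors fell against HepG2 (27.2% of all genes) and 2 rose (30.1% of all genes), with a median of -1.13. The homeobox factor PROX1 (-4.47 ± 0.07), the pioneer factors FOXA1 (-2.32 ± 0.05) and FOXA2 (-2.00 ± 0.10), HNF4G (-1.97 ± 0.10) and CEBPA (-1.16 ± 0.10) fell. CEBPD (0.41 ± 0.08) and CEBPB (0.24 ± 0.06), the C/EBP factors induced in the acute phase, rose. HNF4A has no row with its symbol alone and is not analysed here. None of the 12 passed after withdrawal in limma, where 2 were lower at an unadjusted p under 0.05. At 2% O2 CEBPD was higher by 0.35 ± 0.08 and FOXA1 lower by -0.16 ± 0.05, each against sorafenib at 20% O2.

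All 11 measured genes of the glucocorticoid list passed in sorafenib at 20% O2 against HepG2, 7 higher (30.1% of all genes) and 4 lower (27.2% of all genes), with a median of 0.44. TSC22D3 (2.86 ± 0.07), PER1 (2.25 ± 0.08), DUSP1 (2.04 ± 0.06), ZFP36 (1.00 ± 0.09) and the receptor itself, NR3C1 (0.44 ± 0.06), rose. ERRFI1 (-1.72 ± 0.05) and TAT, the tyrosine aminotransferase of hepatocytes (-1.41 ± 0.12), fell. All groups had dexamethasone in the medium. Of the 11, 3 were higher and 3 lower after withdrawal than in sorafenib at 20% O2 (10.1% and 7.90% of all genes), ZFP36 (-0.58 ± 0.09) and TSC22D3 (-0.34 ± 0.07) among the lower ones. At 2% O2 against 20% O2, 2 were higher and 2 lower (8.99% and 6.17% of all genes).

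Receptors and partners of the acute phase proteins were tested as a list of 14 genes with 12 measured, of which 6 fell and 1 rose in sorafenib at 20% O2 against HepG2, where 27.2% of all genes fell and 30.1% rose. The scavenger receptor CD36 (-2.75 ± 0.09), LY96, the partner of TLR4 (-2.30 ± 0.11), HMOX1, which degrades heme (-1.86 ± 0.08), and LRP1, the receptor of the heme and HPX complex (-1.85 ± 0.07), fell, as did the CRP receptor gene FCGR2A (-0.39 ± 0.11), and TLR4 rose (1.10 ± 0.08). CD163, the HP and hemoglobin receptor, and LAG3, the FGL1 receptor, did not pass (-0.09 ± 0.09 and 0.10 ± 0.09). LRP1 was higher at 2% O2 than in sorafenib at 20% O2 by 1.26 ± 0.07, one of 4 genes of the list that were higher there (8.99% of all genes), while none was lower in limma (6.17% of all genes) and 3 were at an unadjusted p under 0.05.

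The nearest measured gene on each side of the members or their clusters gave 14 neighbours. Against HepG2 in sorafenib at 20% O2, 7 fell (27.2% of all genes) and 3 rose (30.1% of all genes), with a median of -0.19. HPR, the copy of HP beside it, fell (-5.94 ± 0.10) and may share signal with HP. MTUS1 beside FGL1 (-1.91 ± 0.06) and MRGPRX4 beside the SAA genes (-1.68 ± 0.10) fell, whereas HPS5 on their other side rose by 0.46 ± 0.06. Neither neighbour of LBP passed, BPI (-0.07 ± 0.07) and RALGAPB (-0.05 ± 0.06). Beside CRP, DUSP23 rose by 1.55 ± 0.10. After withdrawal MTUS1 was higher than in sorafenib at 20% O2 by 0.45 ± 0.06 (adjusted p = 0.000204, limma), as FGL1 was. The FGL1 means there, 5.14 and 4.58, lie below 5.76 and thus near the floor, and a link with MTUS1 was not tested.

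**Figure D5:**
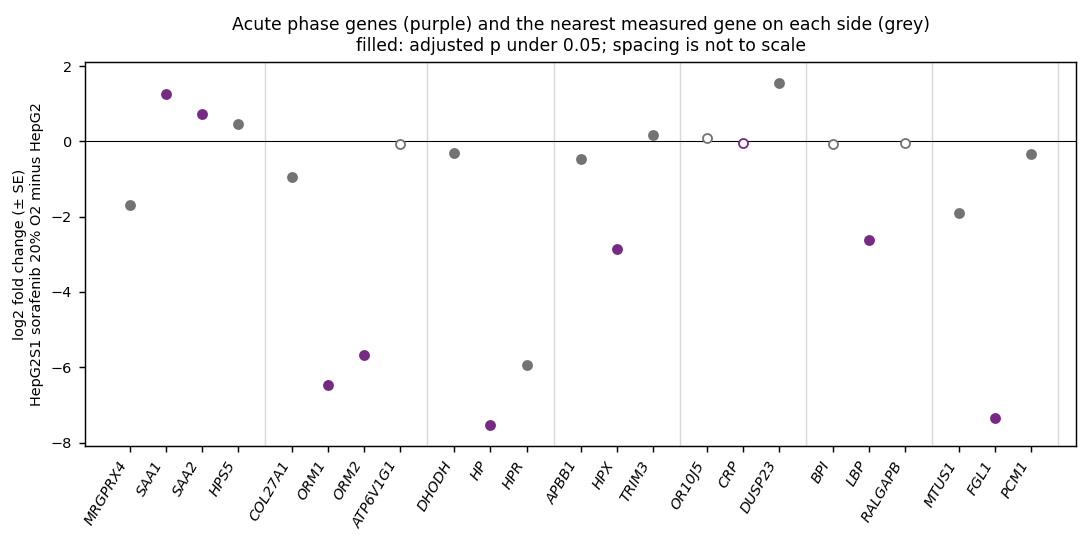
Log2 fold change (y axis, ± SE) in HepG2S1 with sorafenib at 20% O2 minus HepG2 for the acute phase genes (purple) and the nearest measured gene on each side (grey), in genome order within each block; filled points passed an adjusted p of 0.05. Apart from HPR at -5.94, no neighbour of a gene that fell lies below -1.91.

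Likeness was measured as the distance between group means, each gene centred on the mean of its 4 groups, over 4 groups and 13 arrays. The 5 genes nearest to the mean profile of the 9 acute phase genes were HSD17B2 (0.05), KLHL14 (0.05), CYP3A43 (0.06), MIXL1 (0.06) and WASF3 (0.07, all distances on the log2 scale). The members themselves lay farther from that mean, from 0.45 for HPX to 3.92 for SAA1, so that the mean profile stands for HPX and LBP better than for the others. The nearest gene was ACBD3 for SAA1 (0.03), UNC5B for SAA2 (0.07), C5 for ORM1 (0.11), TMEM45B for ORM2 (0.09), ODAM for HPX (0.02), CRB1 for CRP (0.01) and DQX1 for LBP (0.03). APOB, the main protein of low-density lipoprotein, was nearest to both HP (0.10) and FGL1 (0.31).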

How the data were processed

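RNA from 13 flasks was read on 13 Affymetrix HuGene arrays. The deposited values are on the log2 scale, and per the submitters' processing notes the authors used RMA, whose version is not given in the sources used here. RMA corrects background, normalizes between arrays and pulls low signals together, which shrinks folds near the floor. The table holds no detection calls, scan dates or batches.

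Of 28926 rows, the platform annotation gave 1 symbol to 19310, several to 1752 and none to 7864. RefSeq's gene table of GRCh38.p14 supplied current symbols for 19279 rows by Entrez ID. For the 685 genes with several rows the row with the highest mean was used, which left 18377 genes.

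A single limma fit over the 4 groups (version 3.58.1, R 4.3.3) gave each log2 fold change, as the first-named group minus the other, with its SE. P-values were adjusted by Benjamini-Hochberg within a comparison and called under 0.05. The fit was also run on simulated normal data with few changed genes and, for each gene, the same spread in all groups. The comparisons with HepG2 have many changed genes and unequal spreads, so that run checked the code and not these calls. Within-array differences were compared by exact two-sided permutation tests (scipy 1.17.1). The alternatives were trend and robust moderation, fitting the 2 groups alone, dropping genes under the 33rd percentile of mean level, scaling to the 75th percentile, repeating quantile normalization, weighting arrays, averaging the rows of a gene, testing all rows, an adjusted p of 0.01, the HepG2S1 arrays alone and leaving out each array.

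Named were the 10 members, the largest called changes of each gene list, a few genes always given (SOCS3, STAT3, IL6R, IL6ST, CEBPB, CEBPD, NR3C1 and HNF4A among them), the nearest profiles and the chromosomal neighbours. Outside this rule, LCN2, CD163, LAG3, the markers AFP, SERPINB3, KRT5, DCN, LUM and PTPRC, and the olfactory receptor genes were chosen after their values were seen. The members and lists were chosen with earlier results of these data known. Promoters were aligned with Biopython 1.88, and figures drawn with matplotlib 3.10.9 under Python 3.11.15.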

Additional observations from a re-analysis of the deposited data

Results flagged for a closer look

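With 4 arrays in a group, the highest or lowest array was compared with its neighbours by Dixon's test, which chance alone passes in about 1 in 20 groups; 9 genes were tested this way in HepG2S1 with sorafenib at 20% O2. SAA2 passed because flask 9 read 7.16, below the other 3 arrays at 7.28 to 7.30. FGL1 passed because flask 7 read 4.93, above the other 3 arrays at 4.42 to 4.49. Without flask 9 the withdrawn cells stood against exposed cells at -0.58 for SAA2, and without flask 7 at 0.68 for FGL1, so that both calls held. A row annotated to SAA2 and SAA1 together, which the rule left out, averaged 4.42 in HepG2S1 with sorafenib at 20% O2 and 4.07 in HepG2. Its 4 exposed arrays lay above the 3 HepG2 arrays, at a level far below the lower quartile of the arrays. The cause of these 3 results was not tested.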

How the results depend on the processing

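No call of an acute phase gene changed in sorafenib at 20% O2 or at 2% O2 against HepG2 under the alternatives that kept the gene, and no called value changed sign in any of the 6 comparisons. The filter at the 33rd percentile leaves out SAA2, HP, CRP and FGL1, so that genes called higher numbered 1 in sorafenib at 20% O2 against HepG2, 1 at 2% O2 against HepG2 and 0 after withdrawal, and genes called lower 1 after withdrawal, 0 at 2% O2 against 20% O2 and 0 at 2% O2 against withdrawal. Repeated quantile normalization made 2 genes higher in withdrawn cells than in HepG2 (SAA2 at 0.22, adjusted p = 0.0321). Array weights made 2 higher after withdrawal (HP at 0.24), and 1 higher (SAA1) and 2 lower at 2% O2 against withdrawal, and raised the calls over all genes to 5231 after withdrawal, 4568 at 2% O2 against 20% O2 and 5178 at 2% O2 against withdrawal. At an adjusted p of 0.01 these were 1970, 1298 and 2049, with 1 gene lower after withdrawal and 0 lower at 2% O2 against withdrawal. With all rows tested 1 gene was lower after withdrawal, and the HepG2S1 arrays alone made 1 higher (SAA1) at 2% O2 against withdrawal. Leaving out 1 array at a time gave 1 to 2 genes higher in withdrawn cells than in HepG2, 1 to 2 lower after withdrawal, 0 to 1 higher at 2% O2 against 20% O2, and 0 to 1 higher and 0 to 1 lower at 2% O2 against withdrawal. Over all genes it gave 1598 to 3168 calls at 2% O2 against 20% O2, the lowest without flask 17 and 1722 without flask 16. No paired analysis was possible because the groups share no flask numbers. Signal near the floor limits the folds of ORM1, ORM2, HP, HPX, LBP and FGL1 in all 3 HepG2S1 groups. It also limits those of SAA1 and SAA2 against HepG2, differences of SAA2 from withdrawn cells, and any difference in CRP.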

Other observations

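The row that SAA4 shares with the read-through transcript SAA2-SAA4 read 5.29 to 5.59 at 2% O2 with sorafenib, 5.22 to 5.51 after withdrawal and 5.36 to 5.91 in sorafenib at 20% O2, against 10.48 to 11.56 in HepG2. SAA4 is known as the constitutive serum amyloid A of the liver. Unlike the rows of SAA1 and SAA2, this row was far lower in all 10 HepG2S1 arrays, and which of the 2 transcripts its probes read is not given.

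IL1A was higher in all HepG2S1 groups, with means of 10.18 at 2% O2, 9.87 after withdrawal and 9.23 in sorafenib at 20% O2, against 5.83 in HepG2. Of the fibroblast markers, DCN was higher by 5.43 ± 0.07 and LUM by 5.01 ± 0.14 in sorafenib at 20% O2 against HepG2, while RELN (-5.76 ± 0.06) and ACTA2 (-2.00 ± 0.06) were lower and 5 of the 10 did not pass, with a median of -0.03. PTPRC, the marker of blood cells, did not pass (0.02 ± 0.07). Markers of fibroblasts numbered 3 higher and 2 lower of 10, of endothelium 0 higher and 3 lower of 5, of blood and macrophages 1 higher and 1 lower of 6, and of squamous epithelium 2 higher and 0 lower of 5 in that comparison in limma, with the same 0 counts at an unadjusted p under 0.05. Over all genes 30.1% were called higher and 27.2% lower there.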
